A study of Mus musculus with 3 samples.

Results

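Translation factors and RNA helicases were taken as all genes whose symbol begins with Eif, Eef, Ddx or Dhx followed by a digit. RNA-Seq of the hippocampus listed alternative splicing events in 47 such genes of 4860, namely 30 factors (Eif, Eef) and 17 helicases (Ddx, Dhx). They held 93 events of 8727, of which 65 belonged to factors and 28 to helicases. Counts for all 3 libraries were given for 86 of them, in 29 factor and 15 helicase genes. Skipped exons made up 72 of the 93 events, followed by 12 alternative 3′ splice sites, 5 pairs of mutually exclusive exons, 3 retained introns and 1 alternative 5′ splice site.

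The study compared 3 libraries, each from 1 wild-type C57BL/6J mouse of 10 weeks, so no value has a replicate. All mice received adeno-associated virus serotype 9 (AAV9) in the CA1 region of the hippocampus, with the repeat placed behind the Egfp coding sequence. CUG300 + CWG-cPIP carried 300 repeats and was given CWG-cPIP, a cyclic pyrrole-imidazole polyamide directed at repeat DNA of the CAG/CTG type. CUG300 + vehicle carried 300 repeats and was given vehicle, and CUG10 + vehicle carried 10 repeats and was given vehicle. The repeat is expressed from the injected virus and not from the Dmpk gene, whose expanded CUG repeat underlies myotonic dystrophy type 1 (DM1). The tissue is a mixture of cells, in which fewer cells of a type and less RNA per cell cannot be told apart.

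Initiation of translation starts when the cap-binding complex eIF4F, made of the cap-binding protein eIF4E, the scaffold eIF4G and the RNA helicase eIF4A, brings an mRNA to the small ribosomal subunit. eIF2 delivers the initiator tRNA, eIF2B recharges eIF2 with GTP, and kinases that phosphorylate eIF2 slow this step under stress. The elongation factor eEF1A then brings aminoacyl-tRNA to the ribosome. DEAD-box (Ddx) and DEAH-box (Dhx) helicases remodel RNA and RNA-protein complexes in splicing, ribosome assembly and RNA sensing, and the factor eIF4A itself is a DEAD-box helicase.

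The sequences that follow belong to 4 of the genes described below, and show the exons and splice sites at which their reads were counted. They are given 5′ to 3′ from the GENCODE M21 transcripts on build mm10. In both Eif4g2 exons the capitals mark the first and last 3 bases, next to the splice junctions. The 161-nt exon lies at chr7:111076696-111076856 and the 114-nt exon at chr7:111076280-111076393, on the minus strand, and both are coding. The Eif2b4 stretch at chr5:31192626-31192716 (minus strand) is the coding part of a 145-nt extension at an alternative 3′ splice site, with the annotated start codon of the long form in capitals. The Eif4a2 stretch at chr16:23112351-23112380 (plus strand) opens a 107-nt exon, with the first in-frame stop codon in capitals. The Ddx17 stretch at chr15:79531672-79531701 (minus strand) ends the long form of a coding exon, and its capitals are the 6 bases that the downstream 5′ splice site adds.
Eif4g2 161-nt exon: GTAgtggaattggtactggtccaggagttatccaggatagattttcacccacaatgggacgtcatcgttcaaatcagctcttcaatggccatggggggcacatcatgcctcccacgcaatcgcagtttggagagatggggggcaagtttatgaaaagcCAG
Eif4g2 114-nt exon: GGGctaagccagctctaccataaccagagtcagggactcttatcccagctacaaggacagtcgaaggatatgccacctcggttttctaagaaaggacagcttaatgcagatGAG
Eif2b4 coding part of the extension: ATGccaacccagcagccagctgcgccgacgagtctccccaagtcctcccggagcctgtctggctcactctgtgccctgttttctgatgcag
Eif4a2 start of the 107-nt exon: gagtcgaTAGcggcagttgatgacgagatg
Ddx17 end of the long exon: acagaggtggcggcggaggaggggGTAAGG

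Summed over events counted in every library, CUG300 + CWG-cPIP had 560672 counts, CUG300 + vehicle had 567697 and CUG10 + vehicle had 609546. Member genes took 3.47%, 3.2% and 3.29% of them in the same order of libraries, with a median of 55.0, 39.5 and 53.5 counts per event. The CUG300 + vehicle library stood apart in several marker lists. Summed over the measured markers, in counts per 1000000 counts of the library (CPM), 6 of 13 neuronal genes had 10070 CPM in CUG300 + CWG-cPIP, 2996 CPM in CUG300 + vehicle and 9701 CPM in CUG10 + vehicle. For 9 of 14 interferon-stimulated genes the sums were 6201, 32180 and 2643 CPM, and for 4 of 13 microglial and myeloid genes they were 808, 2979 and 677.6 CPM. For the choroid plexus markers, 2 of 6 measured, they were 717, 71280 and 780.9 CPM, nearly all of it from Ttr in CUG300 + vehicle. The sums of 4 of 8 oligodendrocyte genes lay closer together, at 9763, 7317 and 8770 CPM. The 1 astrocyte gene measured, Gfap, had 961.3, 1402 and 518.4 CPM, and the 1 endothelial gene, Pecam1, had 51.72, 28.18 and 44.3 CPM. The part of these differences in the results on the members was not tested.

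The first question was whether inclusion in the factors and helicases differed between libraries. Inclusion is given as PSI (percent spliced in), the share of the inclusion form from 0 to 1 after each count is divided by the length of its form. An event was called by size where each library of a pair had at least 20 counts and PSI differed by more than 0.15. It was called by test where Fisher's exact test on the reads, adjusted over all events of its type in the pair, passed 0.05 and the difference was again over 0.15. That test compares the reads of 2 libraries, not the conditions, and all intervals cover counting error only.

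Few member events were called by size. Member events had more counts than all events, and a size call carries no test, so the shares are compared at unlike depth. The part of depth in them was not tested. For the pair of CUG300 + vehicle and CUG10 + vehicle, 1 of 46 member events with enough counts was called by size, which is 2.17% against 9.34% of all events. Between CUG300 + CWG-cPIP and CUG300 + vehicle, 3 of 50 were called (6.0% against 11.3% of all events). Between CUG300 + CWG-cPIP and CUG10 + vehicle, 4 of 43 were called (9.3% against 8.56% of all events). In the same order, 0, 2 and 2 of these calls were toward higher and 1, 1 and 2 toward lower PSI. Of all events, 3.01%, 7.92% and 4.78% were called toward higher and 6.33%, 3.38% and 3.78% toward lower PSI. By test the members had 1, 1 and 0 calls in these pairs, beside 0.16%, 0.389% and 0.115% of all events. At an unadjusted exact p under 0.05 there were 2, 6 and 2 member events, beside 2.75%, 3.58% and 2.25% of all events. The median absolute PSI difference of members was 0.0291, 0.0295 and 0.0283, and over all events it was 0.0414, 0.0432 and 0.0468.

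Helicases contributed 0 of 13, 0 of 16 and 1 of 9 events called by size in the 3 pairs in the same order, and 0 by test in each. Factors contributed 1 of 33, 3 of 34 and 3 of 34 by size.

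Most member events lay near full inclusion. Of the 56 with at least 20 counts in every library, 40 (71.4%) had a PSI of at least 0.9 in all 3 libraries and 4 (7.14%) had at most 0.1. Over all 2833 events of that depth these shares were 59.9% and 3.64%. The events with the most counts that were not called were the following. The 180-nt exon of Eef1a1, the main eEF1A of most tissues, had 0 skipping counts of 5646 in CUG300 + CWG-cPIP, 2 of 5545 in CUG300 + vehicle and 0 of 5598 in CUG10 + vehicle. A 144-nt exon of Eif4a2 had a PSI of 0.995, 1.0 and 1.0 in these libraries, and a 164-nt exon of Eif1, a factor of start codon selection, had 1.0, 0.998 and 1.0. Among helicases, a 225-nt exon of Ddx5, a splicing and transcription cofactor, had a PSI of 1.0, 0.983 and 1.0, and a 184-nt exon of the mRNA export helicase Ddx39b had 1.0, 0.953 and 1.0. A pair of exons of the nucleolar helicase Ddx24 counted as mutually exclusive had 0.469, 0.5 and 0.45. In none of these 6 did the interval of the difference exclude 0 in any listed pair.

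Eif4g2 (ENSMUSG00000005610.17) was the 1 member called by test. It encodes an eIF4G relative, also known as DAP5, that lacks the eIF4E-binding region and supports cap-independent initiation. Its pair of exons counted as mutually exclusive, the 161-nt and 114-nt exons printed above, had 265 and 182 counts in CUG300 + CWG-cPIP, 67 and 85 in CUG300 + vehicle, and 201 and 127 in CUG10 + vehicle. The PSI of the 161-nt form was therefore 0.538 (95% interval 0.49 to 0.586) in CUG300 + CWG-cPIP, 0.387 (0.311 to 0.468) in CUG300 + vehicle and 0.559 (0.502 to 0.614) in CUG10 + vehicle. The CUG300 + vehicle value lay below both others, with no overlap of intervals.

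For CUG300 + vehicle minus CUG10 + vehicle the difference was -0.172 (-0.262 to -0.077), with an exact p of 0.000527 and an adjusted p of 0.0266. For CUG300 + CWG-cPIP minus CUG300 + vehicle it was 0.151 (0.06 to 0.237), just past the size limit, with an exact p of 0.0013 and an adjusted p of 0.026. CUG300 + CWG-cPIP minus CUG10 + vehicle gave -0.021 (-0.092 to 0.051), without a test because the event was not analysed in that pair. These differences share libraries. Adjusted over all event types together, the exact test gave 0.174 and 0.181 for the first 2, and neither call held.

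The same exons, counted separately as skipped exons, were nearly always included. The 161-nt exon had 386 inclusion and 0 skipping counts in CUG300 + CWG-cPIP, 110 and 2 in CUG300 + vehicle, and 285 and 0 in CUG10 + vehicle. The 114-nt exon had 303 and 0, 128 and 2, and 214 and 3 in these libraries. Transcripts with 1 of the 2 exons and without the other were thus rare in all libraries, and 1 of the 14 annotated transcripts of Eif4g2 holds both exons. The share at the exon pair thus weighed the reads of 2 exons that were both included. Between CUG300 + vehicle and CUG10 + vehicle, reads at the 161-nt exon, the one nearer the 5′ end, had a ratio of 0.422 (0.336 to 0.527), and reads at the 114-nt exon had 0.643 (0.514 to 0.803). Between CUG300 + CWG-cPIP and CUG300 + vehicle the ratios were 3.49 (2.82 to 4.35) and 2.36 (1.92 to 2.92). The third listed exon of Eif4g2, 66 nt at chr7:111080899-111080964, had a PSI of 0.966, 0.953 and 0.893, on 166, 39 and 67 counts. It lies farther 5′ than the exon pair, and its reads had ratios of 0.625 (0.41 to 0.941) and 4.31 (3.03 to 6.28). In the first of these comparisons that is above the 161-nt exon and close to the 114-nt exon. A snoRNA gene, Gm23262, lies in the intron downstream of the pair and overlaps neither exon.

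**Figure D1:**
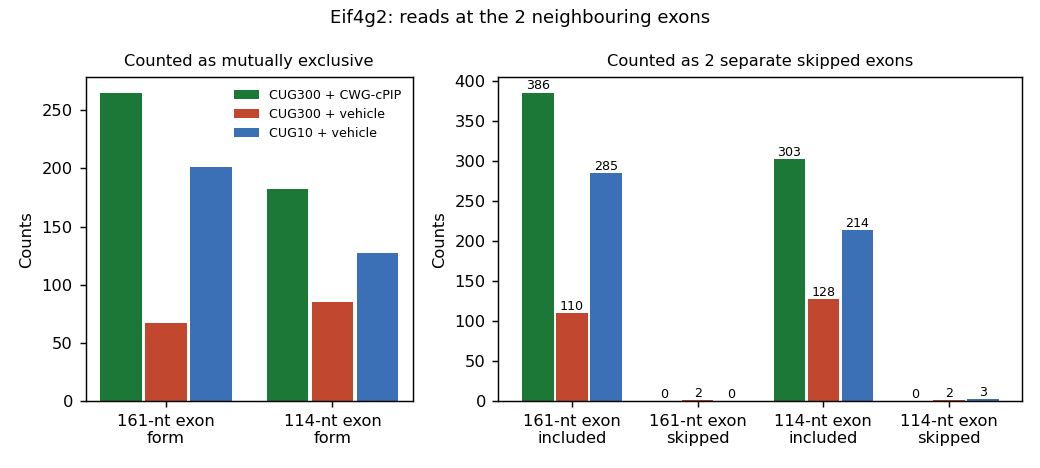
Counts at the Eif4g2 exons in 3 libraries (1 mouse each), on the left for the pair counted as mutually exclusive and on the right for each exon counted as a skipped exon. The 161-nt form is below the 114-nt form only in CUG300 + vehicle (67 and 85 counts), while skipping of either exon had 0 to 3 counts.

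This feature of the exon pair was common. Both exons were in 1 annotated transcript for 4 of the 5 member pairs, those of Ddx24, Ddx49, Eef1d and Eif4g2 (80.0%), and for 333 of all 422 pairs (78.9%). Among such pairs with enough counts over all genes, the share of the exon nearer the 5′ end was lower in 76 and higher in 57 of 134 for CUG300 + vehicle minus CUG10 + vehicle (median difference -0.014). For CUG300 + CWG-cPIP minus CUG300 + vehicle it was higher in 78 and lower in 51 of 129 (median 0.031).

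The other events called by size belonged to 5 genes, and none passed the exact test. Eif2b4, a subunit of eIF2B, had 21 intron and 5 spliced counts at a 367-nt intron (chr5:31192626-31192992) in CUG300 + CWG-cPIP, 6 and 10 in CUG300 + vehicle, and 13 and 11 in CUG10 + vehicle. The PSI was 0.413 (0.205 to 0.705), 0.091 (0.029 to 0.234) and 0.165 (0.076 to 0.328) in these libraries. CUG300 + CWG-cPIP minus CUG10 + vehicle was 0.248 (0.007 to 0.492), with an adjusted exact p of 1.0. Against CUG300 + vehicle, which had too few counts for a size call, the difference was 0.322 (0.091 to 0.558) and the adjusted exact p was 0.151.

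The 145-nt extension of Eif2b4 lies inside the same intron and shares its reads. It is described after its values were seen. It had 12 long-form and 5 short-form counts in CUG300 + CWG-cPIP, 1 and 10 in CUG300 + vehicle, and 4 and 11 in CUG10 + vehicle, a PSI of 0.448, 0.033 and 0.109. CUG300 + CWG-cPIP minus CUG300 + vehicle was 0.415 (0.157 to 0.657), with an exact p of 0.00208 and an adjusted p of 0.2. The printed stretch shows that the long form carries its own annotated ATG, and 2 of the 12 annotated transcripts have it.

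Eif4a2, the eIF4A paralogue that is abundant in brain, had 132 intron and 1 spliced counts at a 709-nt intron (chr16:23112458-23113166) in CUG300 + CWG-cPIP, 70 and 2 in CUG300 + vehicle, and 84 and 1 in CUG10 + vehicle. The PSI of 0.926, 0.768 and 0.888 rests on 1 or 2 spliced counts, and the difference of 0.158 for CUG300 + CWG-cPIP minus CUG300 + vehicle had an interval of -0.128 to 0.46. This intron follows the 107-nt exon whose opening carries a stop codon at base 8. That exon was rarely used, with 10 inclusion and 280 skipping counts in CUG300 + CWG-cPIP, 19 and 405 in CUG300 + vehicle, and 14 and 436 in CUG10 + vehicle.

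The stretch made of that exon and its intron, 816 nt as an extension of the last exon, gave the smallest p of the set. It had 141 long-form and 280 short-form counts in CUG300 + CWG-cPIP, 87 and 405 in CUG300 + vehicle, and 97 and 436 in CUG10 + vehicle. After division by the long form's length this was a PSI of 0.04 (0.033 to 0.049), 0.018 (0.014 to 0.022) and 0.018 (0.014 to 0.023). The difference was 0.023 (0.014 to 0.032) for CUG300 + CWG-cPIP minus CUG300 + vehicle, with an adjusted exact p of 3.39e-05. It was 0.022 (0.014 to 0.031) for CUG300 + CWG-cPIP minus CUG10 + vehicle, with an adjusted exact p of 6.42e-05. CUG300 + CWG-cPIP was thus the high library, by a size far under the limit for a call, and the event was singled out after its values were seen. Reads within the intron cannot be told apart from reads of unspliced RNA.

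Eif2d, which can deliver initiator tRNA without eIF2, had 28 inclusion and 2 skipping counts at a 150-nt coding exon in CUG300 + CWG-cPIP, 23 and 0 in CUG300 + vehicle, and 31 and 0 in CUG10 + vehicle. The difference of -0.178 against CUG300 + vehicle (-0.451 to 0.18) and against CUG10 + vehicle (-0.451 to 0.122) rests on those 2 counts. Eif2s3y, the Y-linked copy of the eIF2 gamma subunit, had 22 and 6, 9 and 2, and 24 and 3 counts at a 95-nt coding exon. Its PSI was 0.616 in CUG300 + CWG-cPIP and 0.778 in CUG10 + vehicle, a difference of -0.162 (-0.417 to 0.144). Reads could be shared with its near-identical X-linked copy, so these values are uncertain.

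Ddx17, a splicing and transcription cofactor related to Ddx5, was the 1 helicase called by size. Its 6-nt extension had 11 long-form and 12 short-form counts in CUG300 + CWG-cPIP, 6 and 6 in CUG300 + vehicle, and 7 and 22 in CUG10 + vehicle. The PSI was 0.459 (0.253 to 0.677), 0.481 (0.198 to 0.776) and 0.227 (0.096 to 0.416). CUG300 + CWG-cPIP minus CUG10 + vehicle was 0.231 (-0.021 to 0.456), with an adjusted exact p of 1.0, so the difference was not detectable at this depth.

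**Figure D2:**
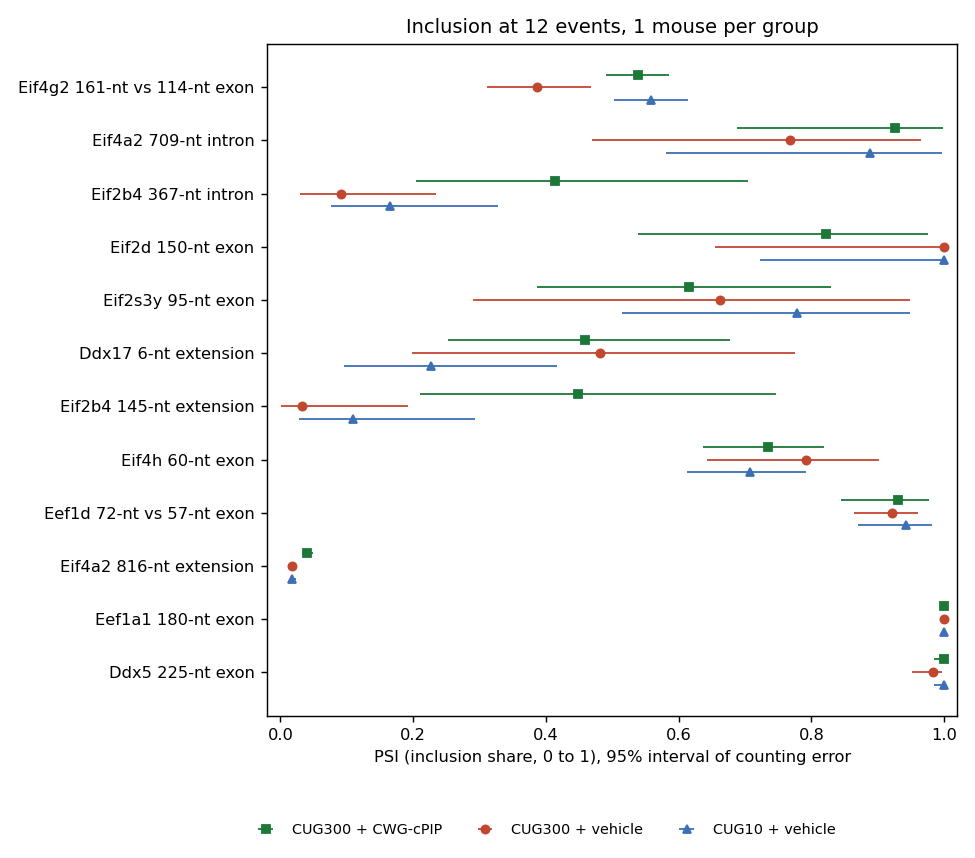
PSI (horizontal axis, 0 to 1) of the 6 events called by size in any pair, followed by 6 others for scale, as points with 95% intervals of counting error for 3 libraries of 1 mouse each. Only Eif4g2 among the called events has a CUG300 + vehicle interval (0.311 to 0.468) clear of both other libraries, and the 2 exons at the bottom stay at 0.983 to 1.0.

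Of the 12 deep events that were neither near 0 nor near 1 in all libraries, 2 are given here, chosen after their values were seen. The 60-nt coding exon of Eif4h, a cofactor of eIF4A, had a PSI of 0.734 (0.637 to 0.819) in CUG300 + CWG-cPIP, 0.792 (0.643 to 0.902) in CUG300 + vehicle and 0.707 (0.612 to 0.792) in CUG10 + vehicle. A 57-nt coding exon of Eef1d, a subunit of the exchange factor of eEF1A, had 0.151 (0.078 to 0.259), 0.142 (0.091 to 0.208) and 0.132 (0.072 to 0.218). Counted with another flanking exon, the 57-nt exon had 0.485, 0.437 and 0.585, on only 8, 19 and 7 counts. Within each event the intervals of the libraries overlapped. At the Eif4h exon CUG300 + vehicle minus CUG10 + vehicle was 0.084 with an interval of -0.079 to 0.217.

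The second question was how many reads the events of each gene drew. Read totals are the inclusion plus skipping counts of a gene's events in CPM. They cover alternative events only and are not divided by length, so they are compared between libraries and not between genes. Among the 41 member genes with at least 20 counts, totals of CUG300 + vehicle were past 2-fold lower than CUG10 + vehicle in 6 and past 2-fold higher in 0, which is 14.6% against 36.0% of all genes. Totals of CUG300 + CWG-cPIP were past 2-fold higher than CUG300 + vehicle in 11 and lower in 0 (26.8% against 48.3%). Between CUG300 + CWG-cPIP and CUG10 + vehicle they were higher in 2 and lower in 0 (4.88% against 13.4%). Of all genes, 5.19%, 41.6% and 11.9% were past 2-fold higher and 30.8%, 6.71% and 1.51% past 2-fold lower in these pairs.

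The whole table moved as well. The median gene had a ratio of 0.698 (log2 -0.52) for CUG300 + vehicle over CUG10 + vehicle, 1.66 (0.74) for CUG300 + CWG-cPIP over CUG300 + vehicle and 1.15 (0.2) for CUG300 + CWG-cPIP over CUG10 + vehicle. The median member had 0.804, 1.19 and 1.11, and 27, 12 and 16 of the 41 members lay above the median gene. With libraries scaled to the median gene, the members past 2-fold were 2 higher and 2 lower, 4 higher and 5 lower, and 1 higher and 1 lower in the 3 pairs. Of all 3698 genes on that scale, 474 were higher and 531 lower (27.2%), 786 higher and 721 lower (40.8%), and 280 higher and 125 lower (11%), so the direction of these counts depended on the scaling. CUG300 + vehicle is part of the first 2 ratios, which therefore move against each other by construction.

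Eif4g1, Eif4g2, Eif4e and Eif4h, grouped here under eIF4F and cap binding, had lower totals in CUG300 + vehicle than in either other library. For Eif4g1, Eif4g2 and Eif4e the longest coding transcript exceeds 3925 nt. All genes from that length had a median ratio of 0.483 for CUG300 + vehicle over CUG10 + vehicle. Eif4g1, the main eIF4G scaffold, had 119.5 CPM (92.61 to 151.8) in CUG300 + CWG-cPIP, 17.62 CPM (8.447 to 32.39) in CUG300 + vehicle and 60.7 CPM (42.74 to 83.67) in CUG10 + vehicle. The ratio was 0.29 (0.129 to 0.595) for CUG300 + vehicle over CUG10 + vehicle and 6.78 (3.47 to 14.8) for CUG300 + CWG-cPIP over CUG300 + vehicle. It was 1.97 (1.3 to 3.03) for CUG300 + CWG-cPIP over CUG10 + vehicle. CUG300 + vehicle was the low library and rested on 10 counts. The ratio of 6.78 was 2.81 with only events listed in all 3 pairs, 4.09 when scaled to the median gene and 10.4 with the 1 event of most counts.

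Eif4g2 had 2322 CPM (2198 to 2452) in CUG300 + CWG-cPIP, 762.7 CPM (692.6 to 838.1) in CUG300 + vehicle and 1472 CPM (1377 to 1571) in CUG10 + vehicle. CUG300 + CWG-cPIP over CUG300 + vehicle was 3.04 (2.73 to 3.4), and CUG300 + vehicle over CUG10 + vehicle was 0.518 (0.461 to 0.582). The cap-binding protein gene Eif4e followed the same order, with 308.6, 125.1 and 241.2 CPM in these libraries and ratios of 2.47 (1.86 to 3.3) and 0.519 (0.385 to 0.693). Eif4h had 246.1, 111.0 and 237.9 CPM, with ratios of 2.22 (1.63 to 3.04) and 0.467 (0.341 to 0.631). The scaffold gene Eif4g3 had 36, 9 and 19 counts, and its ratio of 4.05 for CUG300 + CWG-cPIP over CUG300 + vehicle had an interval of 1.91 to 9.56. Scaled to the median gene, the ratios of CUG300 + CWG-cPIP over CUG300 + vehicle were 1.83 for Eif4g2, 1.49 for Eif4e and 1.34 for Eif4h, and none of these was past 2-fold. That of CUG300 + vehicle over CUG10 + vehicle for Eif4h was 0.673, also within 2-fold.

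The eIF4A genes differed from these. Eif4a1 had 1010 CPM in CUG300 + CWG-cPIP, 984.7 CPM in CUG300 + vehicle and 817 CPM in CUG10 + vehicle, and Eif4a2 had 5342, 4492 and 5603 CPM. Their ratios for CUG300 + vehicle over CUG10 + vehicle were 1.21 (1.07 to 1.36) and 0.802 (0.761 to 0.844), opposite in direction to each other. Scaled to the median gene, both were above 1 (1.74 and 1.16). No event of the eIF4E-binding protein genes Eif4ebp1 or Eif4ebp2 was analysed here.

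The paralogues of eEF1A also parted. Eef1a2, the form of neurons and muscle, had 1322 CPM (1228 to 1420) in CUG300 + CWG-cPIP, 384 CPM (334.7 to 438.5) in CUG300 + vehicle and 1016 CPM (937.1 to 1099) in CUG10 + vehicle. Eef1a1, the more widely used form, had 10070, 9768 and 9184 CPM. For CUG300 + vehicle over CUG10 + vehicle the ratio of Eef1a2 was 0.378 (0.323 to 0.442) and that of Eef1a1 was 1.06 (1.02 to 1.1), and the intervals did not overlap. For CUG300 + CWG-cPIP over CUG300 + vehicle they were 3.44 (2.96 to 4.02) and 1.03 (0.993 to 1.07). Eef1a1 has near-identical processed copies in the genome, so its count is uncertain. The direction for Eef1a2 was the same with libraries scaled to the median gene (0.545 and 2.07), while Eef1a1 lay at 1.53 and 0.621 on that scale. The neuronal markers measured here had median ratios of 0.294 and 3.29 in these pairs. Their part in the Eef1a2 values was not tested.

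Kinases of eIF2 had few reads. Eif2ak1, the heme-regulated kinase, had 24, 11 and 23 counts in CUG300 + CWG-cPIP, CUG300 + vehicle and CUG10 + vehicle. Eif2ak4, the kinase that responds to uncharged tRNA, had 7, 1 and 4. For Eif2ak1 the ratio of CUG300 + CWG-cPIP over CUG300 + vehicle was 2.21 (1.04 to 5.0), past 2-fold, and 1.33 when scaled to the median gene. That of CUG300 + vehicle over CUG10 + vehicle was 0.514 (0.226 to 1.1), a difference not detectable at this depth. For Eif2ak4 the intervals of these ratios were 0.911 to 319 and 0.00545 to 2.71, and both held 1. Eif2ak2 and Eif2ak3 had no event analysed here.

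RNA sensors were also thinly covered. Dhx36, a helicase that unwinds G-quadruplexes, had 103.4 CPM in CUG300 + CWG-cPIP, 65.18 CPM in CUG300 + vehicle and 123 CPM in CUG10 + vehicle, and CUG300 + vehicle over CUG10 + vehicle was 0.53 (0.347 to 0.795). Scaled to the median gene this was 0.764. Ddx1 had 305, 332.9 and 354.4 CPM, with a ratio of 0.94 (0.769 to 1.15) that was 1.35 when scaled to the median gene. Ddx58, which encodes the sensor RIG-I, was listed only for CUG300 + CWG-cPIP and CUG300 + vehicle, with 16 and 26 counts at a 148-nt exon, and enters no total. Dhx58, Ddx60, Dhx9 and Ddx3x had no event analysed here. The Y-linked paralogue Ddx3y had 101.7, 36.99 and 68.9 CPM, on 57, 21 and 42 counts, and reads of its X-linked copy could enter this count.

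Among the other helicases, Ddx17 had 235.4 CPM (197 to 279.2) in CUG300 + CWG-cPIP, 88.08 CPM (65.37 to 116.1) in CUG300 + vehicle and 208.4 CPM (173.7 to 247.9) in CUG10 + vehicle. Its ratios were 0.423 (0.298 to 0.591) for CUG300 + vehicle over CUG10 + vehicle and 2.67 (1.92 to 3.78) for CUG300 + CWG-cPIP over CUG300 + vehicle. The related Ddx5 had 1673, 1251 and 1555 CPM, with ratios of 0.804 (0.729 to 0.887) and 1.34 (1.21 to 1.48). Scaled to the median gene, Ddx5 lay on the other side of 1, at 1.16 and 0.806, while Ddx17 stayed at 0.609 and 1.61.

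A few members were highest in CUG300 + vehicle and are named after their values were seen. Ddx24 had 1548 CPM in CUG300 + CWG-cPIP, 2628 CPM in CUG300 + vehicle and 1814 CPM in CUG10 + vehicle, and CUG300 + vehicle over CUG10 + vehicle was 1.45 (1.34 to 1.57). Eif1 had 1413, 2382 and 1790 CPM (ratio 1.33, 1.23 to 1.44), and Eif3m, a subunit of the eIF3 complex, had 390.6, 695.8 and 461 CPM (1.51, 1.29 to 1.77). None of the 3 was past 2-fold in CPM, while scaled to the median gene the ratios were 2.09 for Ddx24, 1.92 for Eif1 and 2.18 for Eif3m.

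By role, the 7 genes of eIF4F and cap binding had a median ratio of 0.518 for CUG300 + vehicle over CUG10 + vehicle, with 2 past 2-fold lower, beside 30.8% of all genes. That median is the value of Eif4g2. The 5 subunits of eIF3 had 1.1 and the 6 elongation genes 1.02, with 0 and 1 past 2-fold lower. For CUG300 + CWG-cPIP over CUG300 + vehicle the medians were 2.47, 1.07 and 1.02, and the median of all genes was 1.66. A list of 43 other genes of translation and RNA helicases had 16 measured. Its totals were past 2-fold lower in 4 and higher in 1 for CUG300 + vehicle over CUG10 + vehicle, beside 30.8% and 5.19% of all genes. They were past 2-fold higher in 10 and lower in 0 for CUG300 + CWG-cPIP over CUG300 + vehicle, beside 41.6% and 6.71%.

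**Figure D3:**
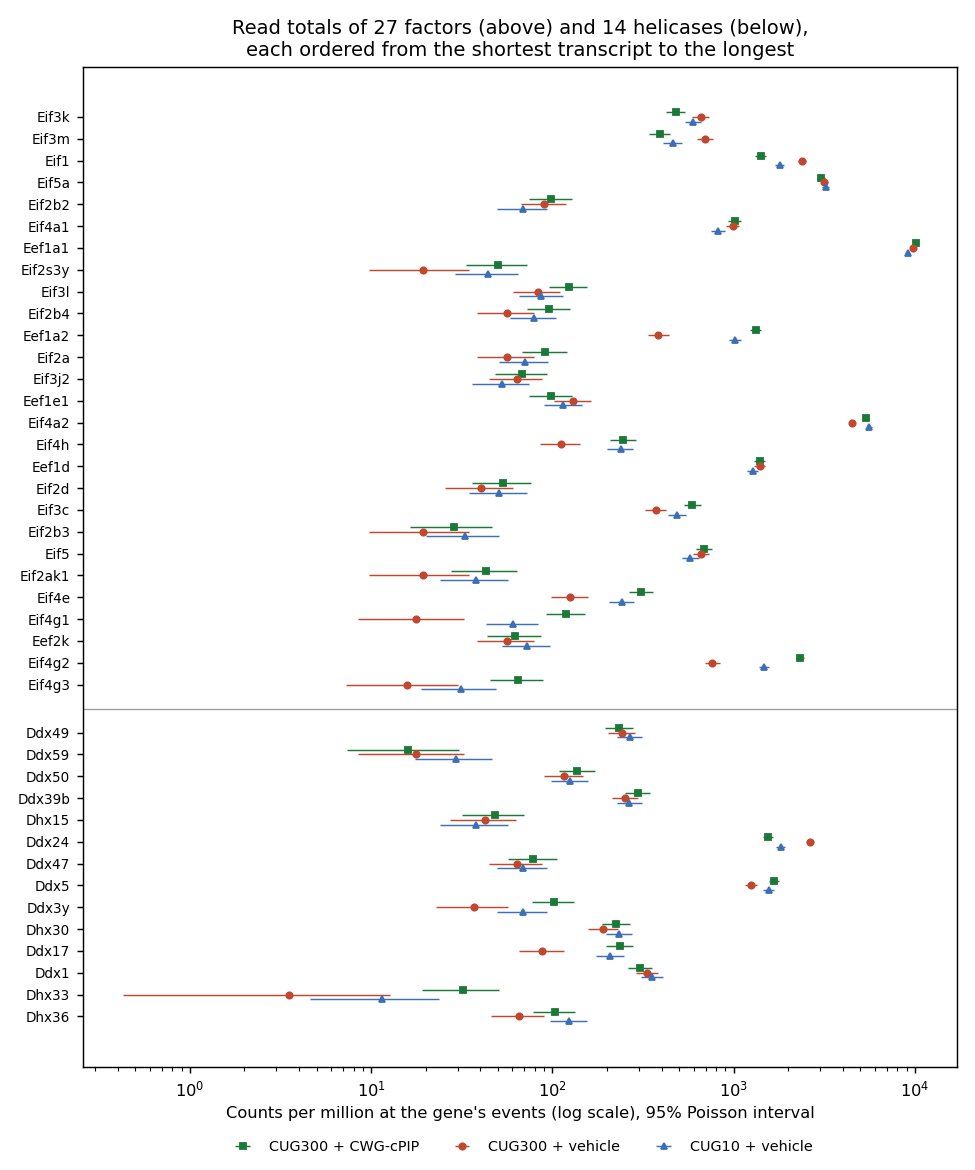
Read totals (CPM on a log axis, with 95% Poisson intervals) of the 27 factor and 14 helicase genes with at least 20 counts, for 3 libraries of 1 mouse each, ordered by transcript length within each class. Eif4g1 (17.62 CPM) and Eef1a2 (384 CPM) are lowest in CUG300 + vehicle, while Eif1 (2382 CPM) and Ddx24 (2628 CPM) are highest there.

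Transcript length moved with the totals. With all genes split into 3 equal classes by their longest annotated coding transcript, the median ratio of CUG300 + vehicle over CUG10 + vehicle was 0.974 in the short class (up to 2226 nt), 0.656 in the middle and 0.483 in the long class (from 3925 nt). The 13, 15 and 13 members in these classes had medians of 0.985, 0.92 and 0.519. For CUG300 + CWG-cPIP over CUG300 + vehicle the members had 1.03, 1.19 and 2.47, and all genes had 0.967, 1.82 and 2.86. Across the 41 members Spearman's rho of length and log2 ratio was -0.55, 0.53 and 0.26 in the 3 pairs, and across 3546 genes it was -0.48, 0.58 and 0.4, as a description over genes that share libraries. What part length had in the totals of single members was not tested.

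Set against the median gene of the same length class, a comparison added after seeing the data, the order of several genes changed. Eef1a2, a short transcript of 2084 nt, kept a ratio of 0.388 for CUG300 + vehicle over CUG10 + vehicle and of 3.56 for CUG300 + CWG-cPIP over CUG300 + vehicle. Eif4g1, at 5638 nt, had 0.601 and 2.38. Eif4g2, at 7995 nt, had 1.07 for CUG300 + CWG-cPIP over CUG300 + vehicle, and Ddx17, Ddx3y and Eif4e fell below 1 there, at 0.936, 0.962 and 0.864. Of the genes named in this paragraph, Eef1a2 and Eif4g1 stayed past 2-fold in that pair. Among all 41 members, 4 were past 2-fold higher and 6 lower there, beside 31.4% of all genes past 2-fold either way. No interval was computed on this scale.

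**Figure D4:**
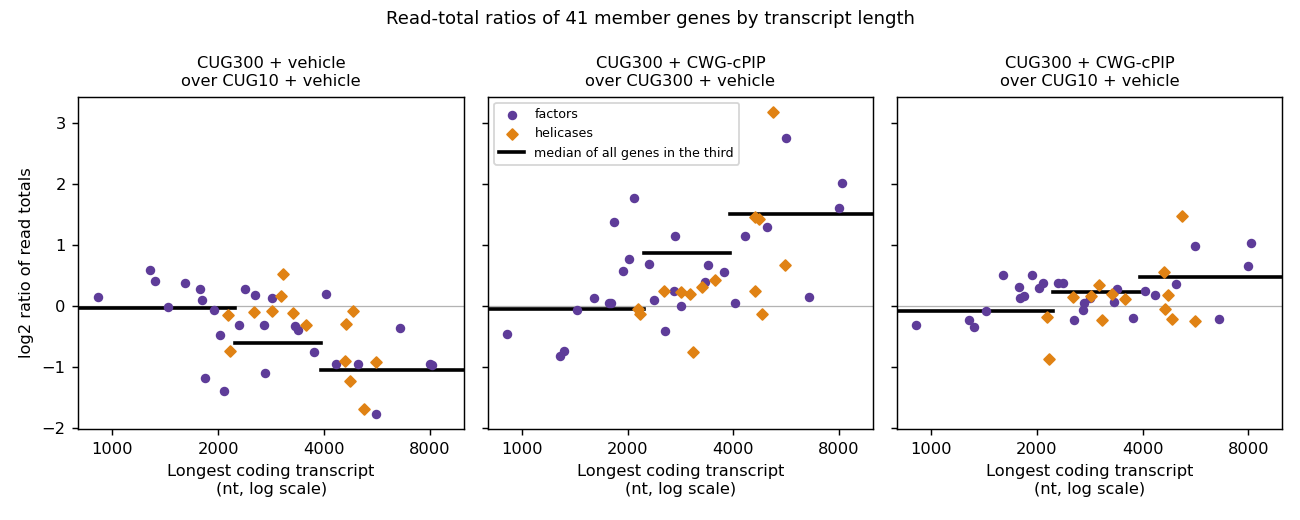
Ratio of read totals (log2, vertical axis) of the 41 member genes against the length of the longest coding transcript (nt, log axis) in the 3 pairs, with the median of all genes in each length class as a black line. Members of the long class have medians of -0.95, 1.3 and 0.25 on the log2 scale, beside lines at -1.05, 1.51 and 0.47 for all genes, and Eef1a2 lies below the short-class line in the left panel, at -1.40.

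Exons of 1 gene did not always move together, which the gene totals hide. Exons of Ddx1 and Eif4a2 are given, chosen after their values were seen. Each distance was taken on the longest coding transcript that holds the exon, so distances within a gene can come from different transcripts. In Eef1d this puts the 1130-nt exon at 916 nt and the 72-nt exon, nearer the 3′ end of the gene, at 1410 nt. In Ddx1 the 64-nt exon at 4616 nt from the 3′ end had 63 counts in CUG300 + CWG-cPIP, 27 in CUG300 + vehicle and 64 in CUG10 + vehicle. The 43-nt exon of Ddx1 at 2873 nt had 108, 162 and 152. Their ratios of CUG300 + vehicle over CUG10 + vehicle were 0.453 (0.278 to 0.721) and 1.14 (0.911 to 1.44). In Eif4a2 the 140-nt exon at 2327 nt had 0.66 (0.586 to 0.741) and the 144-nt exon at 1904 nt had 0.741 (0.685 to 0.801). These 2 intervals overlapped, and both ratios were below 1. In 8 member genes, 2 or more skipped exons with at least 20 counts in every library could be compared. The exon farthest from the 3′ end had a lower ratio than the nearest in 6, 2 and 0 genes in the 3 pairs. It had a higher ratio in 2, 6 and 8. Any difference was counted, whatever its size or interval. In the first pair the farthest and nearest exons had 0.517 and 0.52 in Eif4e and 0.625 and 0.643 in Eif4g2, with overlapping intervals. Across 48 member exons rho of distance and log2 ratio was -0.65, 0.66 and 0.42 in the 3 pairs, and across 3921 exons of all genes it was -0.48, 0.58 and 0.4.

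Eef1d parted as well. Its 1130-nt coding exon at chr15:75902679-75903808, held by 1 of the 18 annotated transcripts, had 249 counts in CUG300 + CWG-cPIP, 123 in CUG300 + vehicle and 214 in CUG10 + vehicle. Inclusion plus skipping counts were 77, 151 and 92 at the 72-nt exon and 50, 106 and 66 at the 57-nt exon. At the 57-nt exon most were reads that skip it, with 12, 24 and 14 inclusion and 38, 82 and 52 skipping counts. Those skipping reads border the 72-nt exon, so these 2 events are not separate measures. The 72-nt and 57-nt exons lie nearer the 3′ end of the gene, on the minus strand, than the 1130-nt exon. For CUG300 + vehicle over CUG10 + vehicle the ratios were 0.617 (0.49 to 0.774), 1.76 (1.35 to 2.31) and 1.72 (1.26 to 2.38). For CUG300 + CWG-cPIP over CUG300 + vehicle they were 2.05 (1.65 to 2.57), 0.516 (0.387 to 0.684) and 0.478 (0.334 to 0.675). The order by position was not kept by a 15-nt exon at chr15:75905886-75905900, farther 5′ than the 1130-nt exon. Its event with the most counts had 22, 40 and 29, nearly all of them skipping. Its ratios in these pairs were 1.48 (0.896 to 2.48) and 0.557 (0.315 to 0.96), on the side of the 72-nt exon. Reads at the long exon were lowest and reads at the 72-nt and 57-nt events were highest in CUG300 + vehicle. The total of Eef1d was 1391, 1390 and 1271 CPM. The PSI of these exons did not show this, at 1.0, 1.0 and 0.929 for the 1130-nt exon, because each event weighs an exon only against its own skipping. The Eef1d exons were chosen after their values were seen.

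**Figure D5:**
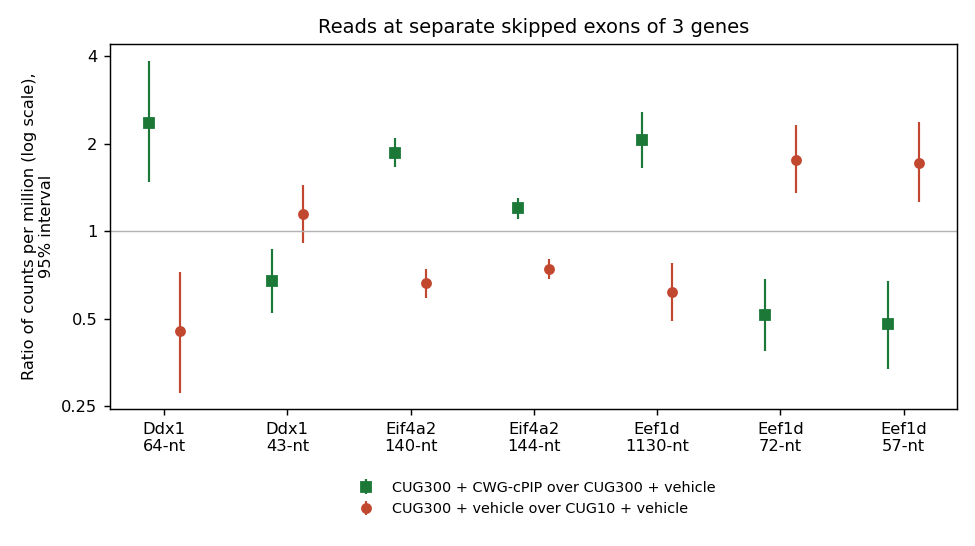
Ratio of CPM (log axis, 95% intervals) at single skipped exons of Ddx1, Eif4a2 and Eef1d, for CUG300 + CWG-cPIP over CUG300 + vehicle (squares) and CUG300 + vehicle over CUG10 + vehicle (circles), which share a library. In Eef1d the 1130-nt exon (2.05 and 0.617) lies on the other side of 1 from the 72-nt exon (0.516 and 1.76). Counts are inclusion plus skipping, and at the Eef1d 57-nt exon most are skipping.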

How the data were processed

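Splicing was measured in the hippocampus of 3 mice, 1 per group. Libraries were stranded and made from total RNA. The submitters' processing notes name mm10 and the tools Trim Galore 0.6.6, STAR 2.7.9a, RSEM 1.3.3 and DESeq2 1.36.0, the last for gene expression, which was not analysed here. rMATS, run by the authors on pairs of libraries, gave 15 deposited tables of 5 event types for 3 pairs.

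The authors deposited whole-number counts of inclusion and skipping reads per event, at junctions and inside the alternative region. PSI was deposited as a fraction from 0 to 1, beside form lengths in nt. These lengths (74 nt for a skipping form) imply a read length other than the one in the methods. They enter every PSI and were used as deposited. A p-value, an FDR and a PSI difference, also deposited by the authors, are their own comparison and were not used. PSI recomputed from the counts deviated by at most 0.0005, and counts of a library listed in 2 pairs were identical in 14737 of 14737 comparisons.

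Computed here with Python 3.11.15, scipy 1.17.1 and pandas 2.3.3 were 95% Clopper-Pearson intervals of PSI, Newcombe intervals of differences, Fisher's exact test (two-sided, Benjamini-Hochberg over the events of a type in a pair) and read totals over events with counts for all 3 libraries, with Poisson and conditional binomial intervals. The tests were tried on simulated counts. Fragments carried no molecular identifiers, events of a gene can share reads, and intervals cover counting error only. Symbols of all 47 genes matched GENCODE M21 (mm10). The event of Eif3j2 lies off the chromosome that this annotation gives the gene, so its length is uncertain.

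Named were every Eif4g2 event, every member event called in any pair, the 3 factor and 3 helicase events of different genes with the most counts that were not called, genes of at least 100 counts past 2-fold with a ratio interval that excludes 1, and the eIF4F genes, eIF2 kinases, RNA sensors and elongation factors of a list. Eef2 had no event analysed here. Members and lists were chosen with earlier results of these data known. Alternatives tried were the count minimum, the size limit, the adjustment, 1 event per gene, and the scaling of totals.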

Additional observations from a re-analysis of the deposited data

How the results depend on the processing

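No paired analysis was possible because each group is 1 mouse. With 1 library per group, no library could be left out. Counts of member events called by size, given for CUG300 + vehicle minus CUG10 + vehicle, CUG300 + CWG-cPIP minus CUG300 + vehicle and CUG300 + CWG-cPIP minus CUG10 + vehicle, were 1, 3 and 4. They became 4, 8 and 8 with a count minimum of 10, and 3, 6 and 7 with a PSI difference above 0.10, and the last became 0 with a minimum of 40. Calls by test (1, 1 and 0) became 0, 0 and 0 when adjusted over all event types, with adjusted exact p of 0.174 for the difference of -0.172 and 0.181 for the difference of 0.151 at Eif4g2. With no size limit the calls in the last 2 pairs became 2 and 1, the Eif4a2 extension being the addition. The shares of all events were not computed at these changed settings of the size and test calls. Whether the member counts moved more or less than those of all events therefore cannot be told. Genes past 2-fold (6, 11 and 2) became 10, 12 and 3 with 1 event per gene (37.9%, 50.2% and 14.1% of all genes), 15, 18 and 5 at 1.5-fold (57.6%, 67.2% and 33.3%), 4, 7 and 0 with at least 100 counts (30.2%, 41.3% and 6.06%), and 5, 8 and 1 with events listed in all pairs (33.0%, 46.8% and 13.2%). Relative to the median gene of the same length class, added after seeing the data, they became 4 (2 higher, 2 lower), 10 (4 higher, 6 lower) and 1 (higher), beside 22.4%, 31.4% and 9.31% of all genes. The counts of 6, 11 and 2 were 0 higher and 6 lower, 11 higher and 0 lower, and 2 higher and 0 lower. On that scale the log2 ratio of CUG300 + CWG-cPIP over CUG300 + vehicle changed sign for Ddx17 (-0.10), Ddx3y (-0.06) and Eif4e (-0.21). The cause of these changes was not tested.

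Neither replicates nor deep coverage stand behind these counts. The CUG300 + vehicle library had a median of 39.5 counts per member event, and the calls at Eif2d and at the Eif4a2 intron rest on 1 or 2 reads of the rarer form.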
